A study of Mus musculus with 4 samples.

Results

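A set of 10 cytokine genes of inflammation and T helper responses was described in whole spleens of 5-day-old mice: Tnf, Il1a, Il1b, Il6, Il18, Il10, Ifng, Il4, Il13 and Csf2. They were chosen by name, and their probes were found by matching the array's RefSeq accessions to gene symbols. All 10 members were found, each with 1 probe, among 20284 genes with a probe. The mice were male and female offspring of ICR dams, an outbred stock. CB-NP dams had received carbon black nanoparticles, ultrafine carbon particles, by intranasal instillation. There were 2 instillations of 95 microg/kg, 1 on gestational day 5 and 1 on day 9. Control dams received distilled water instead, 1 mL/kg at each instillation. The comparison asked how the exposure of the dam bears on gene expression in the offspring's spleen. RNA was pooled within sex and treatment, and the 4 pools (male CB-NP, male control, female CB-NP and female control) were each read on 1 single-colour array. How many animals entered a pool was not given in the sources used here.

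With 1 array per group, there is no replicate spread against which a difference within a sex can be set. The scanner error beside a difference comes from the deposited error of each spot, averaged over a gene's spots and not reduced for their number. For bright probes it was close to a constant, such as 0.14 for the level of Il18 on each of the 4 arrays. It measures no spread between pools, and the precision is limited by the number of arrays. The 4 arrays lay on 1 slide, where position and group cannot be told apart. Between 57.3% and 59.0% of the non-control spots of an array were well above background, and 13933 genes were so on all 4 arrays. Spleen was the labelled tissue, and the spleen patterning genes Tlx1 and Nkx2-5 were well above background in all 4 pools. In bulk RNA such as this, fewer cells of a type and less RNA per cell cannot be told apart.

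Cytokines are secreted proteins through which immune cells direct one another. Tnf, Il1a, Il1b, Il6 and Il18 drive inflammation and are made largely by macrophages and other myeloid cells, although lymphocytes also make Tnf. The precursors of Il1b and Il18 are cut to their active forms by caspase-1 in the inflammasome, so their RNA level is not a level of active cytokine. Il10 restrains inflammation. Ifng is the signature cytokine of type 1 T helper cells and natural killer cells, Il4 and Il13 are those of type 2 T helper cells, mast cells and basophils, and Csf2 acts on myeloid cells.

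The stretches upstream of the transcription start are shown for the 5 members that had a measurable level, because these carry every comparison below. They are the 250 bases before the start in RefSeq's GRCm38.p6 annotation, written 5′ to 3′ on the strand of the gene. Capitals mark the TATA box (TATAAA) and the core of an NFAT site (GGAAA), each on either strand, so that TTTATA and TTTCC are the same letters on the opposite strand.
Tnf (chr17:35202008-35202257, minus strand): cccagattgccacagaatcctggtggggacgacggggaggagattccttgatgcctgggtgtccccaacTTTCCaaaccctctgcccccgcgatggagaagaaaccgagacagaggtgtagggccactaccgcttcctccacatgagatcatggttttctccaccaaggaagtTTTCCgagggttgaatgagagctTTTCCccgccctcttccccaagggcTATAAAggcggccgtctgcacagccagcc
Il1b (chr2:129371140-129371389, minus strand): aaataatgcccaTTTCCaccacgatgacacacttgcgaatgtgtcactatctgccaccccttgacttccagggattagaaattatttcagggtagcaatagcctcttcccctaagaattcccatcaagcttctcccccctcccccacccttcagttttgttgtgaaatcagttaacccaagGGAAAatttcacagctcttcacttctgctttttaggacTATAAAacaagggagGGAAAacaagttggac
Il18 (chr9:50554450-50554699, plus strand): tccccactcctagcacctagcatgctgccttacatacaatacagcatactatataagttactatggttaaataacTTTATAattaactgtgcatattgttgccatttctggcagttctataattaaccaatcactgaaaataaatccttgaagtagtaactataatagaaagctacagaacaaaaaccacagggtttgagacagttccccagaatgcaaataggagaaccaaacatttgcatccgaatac
Ifng (chr10:118440796-118441045, plus strand): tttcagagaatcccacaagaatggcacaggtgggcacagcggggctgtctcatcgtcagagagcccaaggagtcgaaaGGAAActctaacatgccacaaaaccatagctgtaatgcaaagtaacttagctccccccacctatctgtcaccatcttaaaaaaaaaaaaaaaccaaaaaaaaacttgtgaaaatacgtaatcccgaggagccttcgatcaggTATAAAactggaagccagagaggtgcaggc
Il4 (chr11:53618666-53618915, minus strand): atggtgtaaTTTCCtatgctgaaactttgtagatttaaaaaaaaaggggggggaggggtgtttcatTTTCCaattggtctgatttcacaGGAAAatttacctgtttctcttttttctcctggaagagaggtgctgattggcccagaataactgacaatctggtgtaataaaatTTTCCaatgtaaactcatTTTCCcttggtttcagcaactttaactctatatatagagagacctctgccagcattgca

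Of the members, 9 had an entry in the promoter table, 10 entries in all because Il4 has 2 starts, of which the outer one is printed. Il10 had none. A TATA box on the gene's strand lay within 40 bases of the start in 5 members (Tnf, Il1b, Ifng, Il1a and Il13), against 2.31% of the 32851 promoters in the table. The NFAT core, a short and common motif, was found 3 times in Tnf, 3 times in Il1b, 1 time in Ifng, 5 times at the printed Il4 start and not in the Il18 window. It occurred in 55.6% of all promoters, and its letters can lie within the NF-kB consensus. All motifs were sought on both strands. The NF-kB consensus matched in Il6, the STAT site (TTCNNNGAA) in Ifng and the AP-1 site (TGANTCA) in Il1a and Il6. Of all promoters, 7.25%, 7.02% and 6.75% held these motifs in the order given. A match describes letters in the window and does not show that a factor binds there.

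Tnf, Il1b, Il18, Ifng and Il4 were well above background in all 4 pools, whereas Il1a, Il6, Il10, Il13 and Csf2 were not well above background in any. For the last 5, no fold between pools is given. Il13 read 1.77 and 1.89 intensity units in the male CB-NP and male control pools and 2.02 and 2.08 in the female CB-NP and female control pools, on 1 spot each. Il10, printed 10 times on each array, averaged 4.24 and 2.93 units in the male CB-NP and male control pools and 2.80 and 4.55 in the female CB-NP and female control pools. None of its spots was well above background. Csf2, also printed 10 times, averaged 4.75 and 3.82 units in male CB-NP and male control and 2.94 and 4.12 in female CB-NP and female control. A single Csf2 spot in the male CB-NP pool, at 17.6 units, was well above background. Il1a read 8.62 units in male CB-NP and 7.66 in male control, and 11.5 in female CB-NP and 12.7 in female control, none of them well above background. Il6 averaged 6.70 and 8.27 units in the male CB-NP and male control pools and 4.87 and 8.92 in the female CB-NP and female control pools. Of its 2 male control spots, 1 was well above background.

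**Figure D1:**
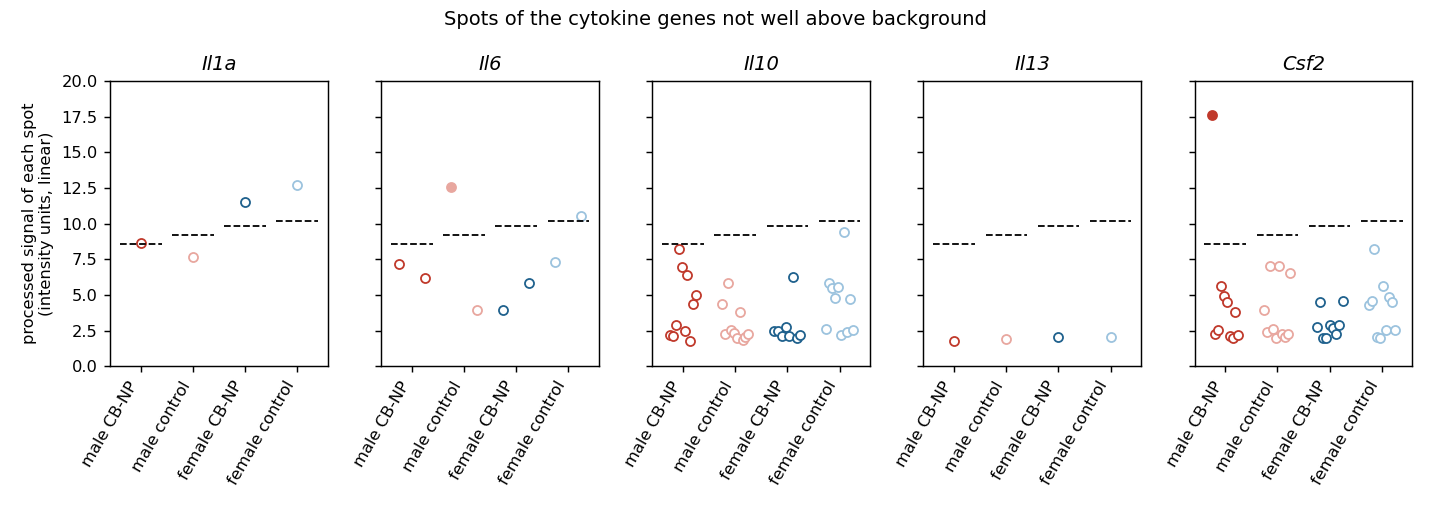
Processed signal (intensity units, linear axis) of every spot of the 5 genes that were not well above background, by pool. Open points are spots not well above background, filled points are spots that were, and the dashed line is the lowest signal of any spot well above background on that array. Il10, Il13 and all but 1 of the Csf2 spots lie under the line. The Il1a spots of both female pools and of male CB-NP, and 1 Il6 spot of female control, lie above it without having been marked as well above background.

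Levels of the other members are given as log2 of the processed signal minus the 75th percentile of the same array. They can be compared between pools for 1 gene, but not between genes, since probes differ in brightness. No member was at least 2-fold different with CB-NP in either sex. In the male pair 0.860% and in the female pair 1.09% of all genes measured were at least 2-fold different, in either direction. Between the control pools of the sexes it was 0.777%, again with no member among them.

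Tnf was higher in the CB-NP pool of both sexes. Its level was -1.09 in male CB-NP and -1.82 in male control, and -1.13 in female CB-NP and -1.53 in female control. Both CB-NP pools therefore lay above both control pools. The difference was 0.74 in males (1.67-fold, scanner error 0.21) and 0.40 in females (1.32-fold, scanner error 0.21) on the log2 scale. Tnf is printed 10 times on the array, and after centring the spots of the CB-NP and control pools overlapped in neither sex. The spot levels ran from -1.23 to -0.96 in male CB-NP, against -1.97 to -1.67 in male control. They ran from -1.33 to -1.0 in female CB-NP, against -1.70 to -1.38 in female control. Before centring the female spots did overlap, at 126 to 158 intensity units in female CB-NP and 121 to 151 in female control. Mean signals were 145 and 136 units in these 2 pools, and 160 and 94.8 in male CB-NP and male control. The gap between the female spots therefore rests on the centring. Repeated spots show the precision of 1 array and are no replicates of the exposure. Tnf was the 1 member at least 1.5-fold different in the male pair, as were 4.57% of all genes in either direction. No member was so in the female pair, beside 6.88% of all genes. Of all genes, 1.29% had a male difference as high as that of Tnf and 9.68% a female difference as high. Counted in either direction, 2.43% differed by as much in males and 17.4% in females. With normexp background correction, which adds an offset to every spot and so shrinks the differences of dim probes, the male difference was 0.42 and the female one 0.28. With median centring the male difference was 0.78 and the female one 0.29.

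Tnf also differed between the pools without exposure, by 0.30 (female control minus male control, scanner error 0.21). The CB-NP pools of the sexes differed by -0.04 (female minus male). The larger male difference thus went with a lower male control level. A limma model over the 4 pools, with treatment and sex as terms and 1 residual degree of freedom, gave Tnf a difference of 0.57 with a standard error of 0.13. Its unadjusted p was 0.0159 and its adjusted p 0.322 (limma, Benjamini-Hochberg over 14502 genes), with the gene higher in 2 of 2 pairs. The adjusted p ranged from 0.0924 to 0.705 over the alternative settings. Limma called 0 of the 5 members fitted, beside 0.0827% of all genes, and Tnf alone of these 5 had an unadjusted p under 0.05, as 13.8% of all genes did. A permutation of the treatment labels, 2 pools against 2, cannot give an exact two-sided p below 0.333.

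**Figure D2:**
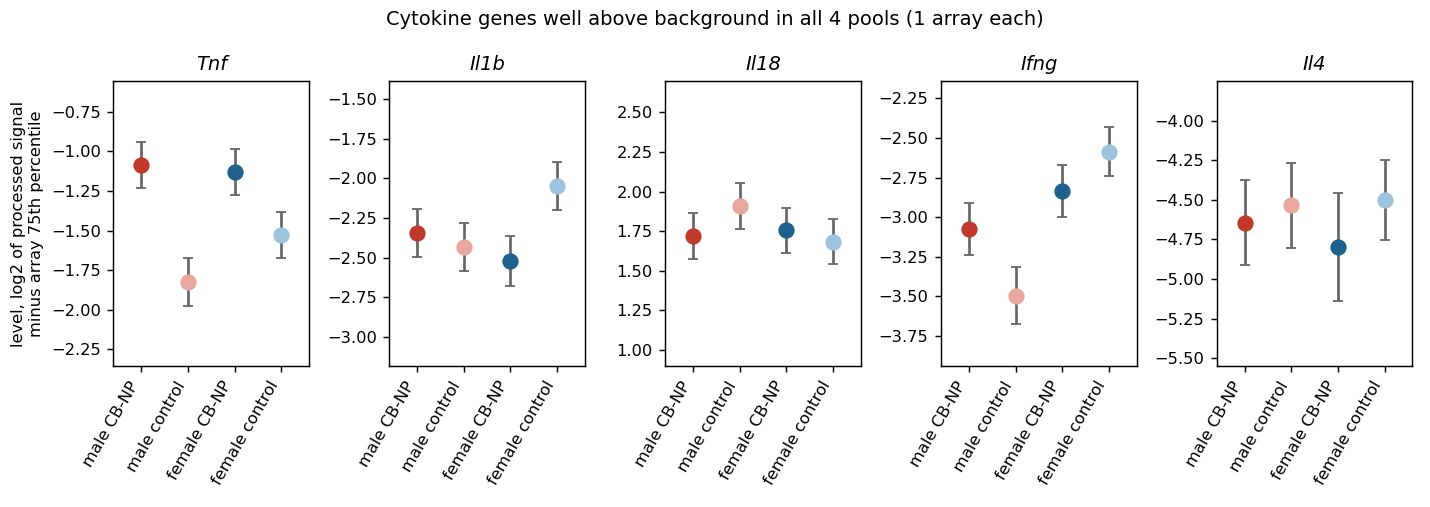
Level (log2 of processed signal minus the array's 75th percentile) of the 5 genes measured in all pools, 1 point per pool. Bars are the scanner error of that level, and all panels span the same number of log2 units. Both CB-NP points of Tnf lie above both control points, whereas for Ifng and Il1b the female control pool is the highest.

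On chromosome 17, Tnf sits between the lymphotoxin genes Ltb and Lta, whose products shape lymphoid tissue and are made by lymphocytes. Ltb was higher with CB-NP by 0.77 in males and 0.74 in females, and Lta by 0.76 and 0.83. The next genes outward had smaller differences. Nfkbil1, beside Lta, had differences of 0.32 in males and 0.19 in females, and Lst1, beside Ltb, had 0.12 and -0.09. Between the control pools (female minus male) Ltb differed by -0.03 and Lta by less than 0.01, beside 0.30 for Tnf. The neighbours were taken by position, and the high values of Ltb were known when that was decided.

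**Figure D3:**
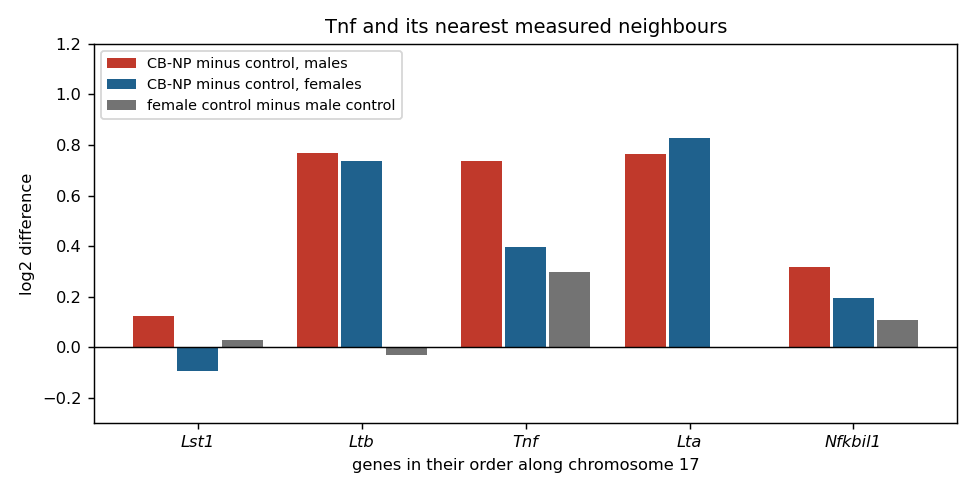
Log2 difference of Tnf and of the 2 nearest genes with a probe on each side, in their order on chromosome 17, for the male pair, the female pair and the control pools. Ltb, Tnf and Lta stand between 0.40 and 0.83 in both CB-NP comparisons, and Lst1 and Nfkbil1 between -0.09 and 0.32.

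B cell markers were higher in the CB-NP pools of both sexes. The summed level of 8 B cell genes, in multiples of the array's 75th percentile, was 98.7 in male CB-NP and 58.8 in male control, and 91.2 in female CB-NP and 55.4 in female control. Of the 8, all were well above background in every pool, 8 were above 0 in males (median 0.70) and 7 in females (median 0.75). Ms4a1, the surface protein CD20, was at 0.92 and 0.61, and Cd79b, a B cell receptor subunit, at 0.71 and 0.77. The 10 T cell genes, all well above background in every pool, summed to 27.0 in male CB-NP and 26.8 in male control, and to 35.6 in female CB-NP and 26.8 in female control. Their median differences were 0.11 in males, within the scanner error of most single genes, with 7 of 10 above 0, and 0.52 in females, with 10 of 10 above 0. Monocyte and macrophage genes had medians of 0.18 and 0.01, and summed to 123 in male CB-NP and 113 in male control, and to 127 in female CB-NP and 105 in female control. Their female median fell below 0 with normexp, median centring or probe averaging. What part these markers have in the Tnf difference was not tested.

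Among the inflammatory members, Il1b had its highest level in the female control pool. It was at -2.34 in male CB-NP and -2.43 in male control, and at -2.52 in female CB-NP and -2.05 in female control. The female CB-NP pool was the lowest of the 4 and the female control pool stood above the other three. The difference was 0.09 in males, within its scanner error of 0.22, and -0.48 in females (1.39-fold lower, scanner error 0.22). Spots of the male pools overlapped. Those of the female pools did not, with spot levels from -2.71 to -2.37 in female CB-NP and from -2.14 to -1.91 in female control. Among all genes measured in females, 11.6% differed by as much in either direction. With normexp the female difference was -0.13. Over both sexes limma gave -0.19 (standard error 0.18, adjusted p 0.597).

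Neutrophil genes were lower in the same female comparison. The list, all 10 members well above background in every pool, summed to 1401 in male CB-NP and 1334 in male control, and to 1197 in female CB-NP and 1401 in female control. None of the 10 was above 0 in females (median -0.34), whereas 9 of 10 were in males (median 0.14). The calprotectin genes S100a8 and S100a9 were at -0.34 and -0.01 in females. Of the monocyte and macrophage list, 7 of 8 genes were above 0 in males and 5 of 8 in females. Its brightest genes, the growth factor receptor gene Csf1r and the scavenger receptor gene Marco, were at 0.22 and -0.03 in males and at 0.08 and 0.81 in females. Their part in the Il1b difference was not tested.

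Il18 differed little between pools. Its level was 1.72 in male CB-NP and 1.91 in male control, and 1.76 in female CB-NP and 1.68 in female control, on 1 spot per array. The differences of -0.19 and 0.07 were both within the scanner error of 0.20, and the female one became -0.04 with median centring. Limma gave -0.06 over both sexes (standard error 0.11, adjusted p 0.797).

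Ifng spread most widely among the measured members, and its widest gap lay between the control pools. Its level was -3.08 in male CB-NP and -3.49 in male control, and -2.83 in female CB-NP and -2.59 in female control. Both female pools lay above both male pools. The female control exceeded the male control by 0.91 (1.88-fold, scanner error 0.24), and 0.353% of all genes had a difference as high in that direction. Counted in either direction, 1.06% of all genes differed by as much. At 1.5-fold it was the 1 member counted between the control pools, where 4.06% of all genes were. The CB-NP difference was 0.42 in males (1.34-fold higher, scanner error 0.24) and -0.25 in females (1.19-fold lower, scanner error 0.23). With CB-NP the sexes were thus 0.24 apart (female minus male), against 0.91 in the controls. The probe is printed 2 times, and the spots of the CB-NP and control pools did not overlap in either sex. With 2 spots against 2 this says little. The nearest male spots were at -3.27 in CB-NP and -3.36 in control. Its signal was low, at 40.7 and 29.9 intensity units in male CB-NP and male control and 44.5 and 65.4 in female CB-NP and female control. With normexp the male difference was 0.10, the female one 0.06 with the sign turned, and the one between the controls 0.23. Limma gave 0.09 over both sexes (standard error 0.20, adjusted p 0.836).

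The 3 genes whose 4 centred levels lay nearest to those of Ifng were Wipf3, Lrch3 and Pcdhb7, with root mean square distances of 0.0311, 0.0497 and 0.0502 on the log2 scale. They were ranked among 13932 genes over the 4 pools, and 11 genes lay within 0.1. Of the natural killer and innate lymphoid genes, 6 of 9 were above 0 between the controls (median 0.44, female control minus male control), beside 52.4% of all genes. Eomes, Nkg7 and Il1rl1 were below 0, at -0.12, -0.11 and -0.11. Their medians with CB-NP were 0.05 in males and -0.10 in females. The list summed to 18.0 in male CB-NP and 17.3 in male control, and to 16.6 in female CB-NP and 18.8 in female control, with 9 of 10 genes well above background in each pool and Klrk1 in none. The granule genes Nkg7 and Gzma were at 0.08 and 0.04 in males and at -0.04 and -0.53 in females. Their part in the Ifng values was not tested.

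Il4 lay close to the limit of detection. Its level was -4.64 in male CB-NP and -4.53 in male control, and -4.80 in female CB-NP and -4.50 in female control. Its mean signal was 13.8 and 14.7 intensity units in male CB-NP and male control and 11.9 and 17.5 in female CB-NP and female control. In female CB-NP, 5 of 9 spots used were well above background, against 9 of 9 in female control. Spots of the CB-NP and control pools overlapped in both sexes. The differences of -0.11 and -0.30 were within their scanner errors of 0.38 and 0.42, and the female one was 0.14 with normexp. Limma gave -0.20 over both sexes (standard error 0.10, adjusted p 0.420).

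Mast cell, basophil and eosinophil genes were taken here for some of the innate sources of Il4 and Il13. Of 8 mast cell and basophil genes measured, 2 were above 0 in males and 3 in females. Of 9 eosinophil genes, 2 were above 0 in males and 1 in females. For all genes, 45.2% were above 0 in males and 43.3% in females, and the female mast cell and basophil count lay near that share. Mast cell and basophil genes had medians of -0.25 in males and -0.32 in females, and summed to 10.3 in male CB-NP and 11.9 in male control, and to 10.8 in female CB-NP and 12.0 in female control. Of these 10 genes, Ms4a2 was not well above background in any pool and 8 or 9 were in each. The mast cell chymase gene Cma1 was at -0.87 in males and -1.31 in females. Eosinophil genes, 9 of 9 well above background everywhere, had medians of -1.23 and -1.41 and summed to 11.9 in male CB-NP and 34.0 in male control, and to 19.5 in female CB-NP and 64.9 in female control. The granule protein gene Prg2 was at -3.33 and -2.36. The surface receptor genes on the list, named after their values were seen, were at 0.31 and 0.84 for Il5ra, at 0.54 and -0.38 for Ccr3 and at -0.06 and -0.75 for Siglecf. What part these cells have in the Il4 values was not tested.

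**Figure D4:**
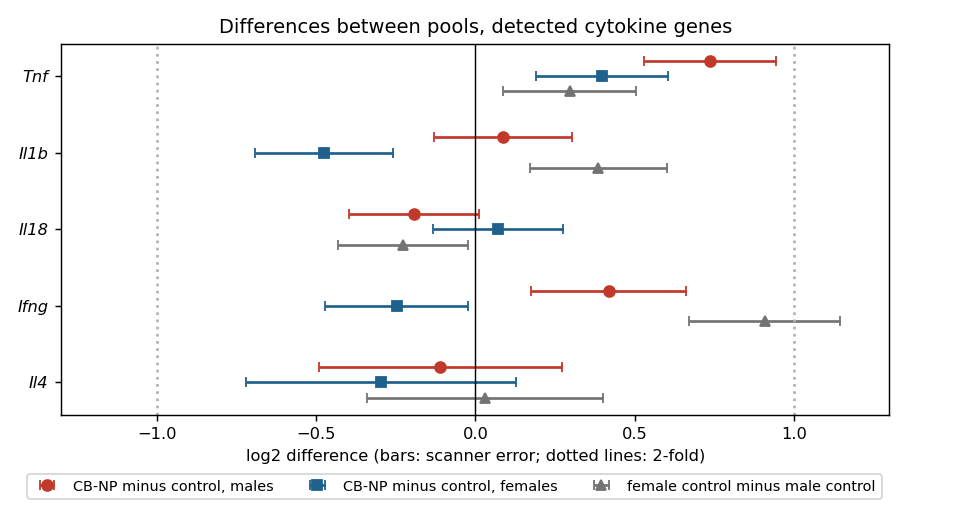
Log2 differences of the 5 measured genes, for CB-NP minus control in males, CB-NP minus control in females and female control minus male control, with bars for the scanner error and dotted lines at 2-fold. Tnf lies above 0 in both CB-NP comparisons (0.74 and 0.40), Ifng and Il1b lie on opposite sides of 0 in the sexes, and the widest difference shown is that of Ifng between the controls (0.91).

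In the signs of their differences, the 5 measured members split 3 ways, and those of Ifng, Il18 and Il4 depend on the processing as given above. Tnf was above 0 in both pairs, as were 27.8% of all genes. Il4 was below 0 in both, as were 39.4%. Il1b, Ifng and Il18 had opposite signs in the sexes, as did 32.8% of all genes. The male pair and the control comparison share the male control array, and the female pair and the control comparison share the female control array, so a high or low control pool enters both. For Ifng the 3 values, male, female and controls, were 0.42, -0.25 and 0.91, and for Il1b they were 0.09, -0.48 and 0.39.

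The genes listed as receptors of these cytokines were well above background in all pools, 18 of 18. The list includes Csf2rb2, a receptor gene of Il3, which is not a member. In males 16 were above 0, with a median of 0.13, and in females 11 were, with a median of 0.03, which became -0.08 with median centring. For all genes, 45.2% were above 0 in males and 43.3% in females, and the medians were -0.02 and -0.04. None was 2-fold different. The Ifng receptor chain gene Ifngr1 was at 0.11 and 0.02, and the Csf2 receptor gene Csf2ra at 0.19 and -0.20. Named after their values were seen, the shared receptor chain gene Il2rg was at 0.54 and 0.51 and Il10ra, which binds Il10, at 0.49 and 0.36. Il18rap, a chain of the Il18 receptor, and Il4ra, which serves Il4 and Il13, were near 0 in males (0.03 and 0.02) and at -0.75 and -0.68 in females.

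Inhibitors of the pathways were mostly above 0 in both sexes. Of 12 decoys, antagonists and feedback inhibitors, 11 were measured. In males 10 were above 0 (median 0.28) and in females 9 (median 0.26), and 8 were so in both. Nfkbia, which holds NF-kB in the cytoplasm, was at 0.29 and 0.26, and Socs3, a brake on Il6 signalling, at 0.29 and -0.15. The Tnf-induced inhibitor gene Tnfaip3, named after its values were seen, was at 0.69 and 0.19. The antagonist gene Il1rn was not well above background in any pool. Genes of inflammasome and cytokine processing were above 0 in 6 of 9 in males (median 0.11) and in 4 of 7 in females (median 0.04), and the female median was -0.07 with median centring, with the adaptor gene Pycard at -0.17 and 0.23 and the pore-forming protein gene Gsdmd at 0.26 and -0.01.

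Response genes of Ifng were above 0 in both sexes, and in the controls too. In males 9 of 10 were above 0 with a median of 0.44, and in females 7 of 9 with a median of 0.36. Between the controls 9 of 9 were higher in the female pool (median 0.43), where 52.4% of all genes were. The GTPase gene Igtp was at 0.12 and -0.22 and the immunoproteasome gene Psmb9 at 0.25 and 0.15. Named after their values were seen, the transcription factor gene Irf1 was at 0.76 and 0.42 and the chemokine gene Cxcl10 at 0.51 and 0.56. In females Igtp and Tap1 (-0.09) were below 0, as was Ifng at -0.25, and the other 7 measured were above 0. The female Ifng value turns to 0.06 with normexp.

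Response genes of Tnf, Il1 and Il6 were above 0 in 5 of 5 measured in males (median 0.26) and in 1 of 5 in females (median -0.11), and the other 5 of the list were not well above background in any pool. The adhesion gene Vcam1 was at 0.02 and -0.05, and the neutrophil granule gene Lcn2 at 0.15 and -0.67. Among response genes of Il4 and Il13, 5 of 6 were above 0 in males (median 0.67) and 3 of 7 in females (median -0.13). The female list holds Arg1 (-0.82), which was not well above background in males. Without it, over the genes detected on all 4 arrays, the female median was -0.02. With Arg1 kept, the female median was -0.24 with median centring and -0.02 with normexp or cyclic loess. Il4i1, an amino acid oxidase gene of B cells and macrophages, was at 0.97 and 0.99, and the chitinase-like gene Chil3 at 0.39 and -0.13. Fcer2a, the IgE receptor of B cells, named after its values were seen, was at 0.95 and 0.92 and stands on the B cell list as well.

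For signal transducers and T helper transcription factors, 21 of 25 were above 0 in males (median 0.11) and 14 of 25 in females (median 0.05), and the female median was -0.06 with median centring. The NF-kB subunit gene Rela was at 0.08 and -0.06 and the adaptor gene Traf2 at 0.03 and 0.09. Chosen after their values were seen, lineage factors of T helper cells were at 0.33 and 0.16 for Tbx21 (type 1), at 0.16 and 0.69 for Gata3 (type 2) and at -0.33 and 0.77 for Foxp3 (regulatory).

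Other cytokines of these classes were mostly undetected. Of 19 listed, 18 had a probe and 11 were not well above background in any pool, among them Il2, Il5 and Il17a. The 6 measured had medians of 0.01 in males and 0.08 in females. The male median changed sign with normexp, and the female one with median centring, quantile normalization or probe averaging. Tgfb1 was at -0.05 and -0.14 and Csf1, the macrophage growth factor gene, at 0.07 and 0.14. Il22, a cytokine gene near Ifng on chromosome 10, was well above background in the CB-NP pools only. It read 14.0 units in male CB-NP and 5.36 in male control, and 12.8 in female CB-NP and 9.38 in female control. Set against the detection limit of the control array, it was higher by 0.59 in males and 0.63 in females on the log2 scale. Limma gave Il22 1.06 over both sexes (adjusted p 0.310). For the values of 0.59 and 0.63, the control level was taken as the lowest that counts as well above background on that array, unless Il22 itself read higher. They leave out the reading error of the dim CB-NP signals, and spots not marked as well above background can lie above that limit. They are therefore no firm lower bounds. Il22 was named after its values were seen.

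**Figure D5:**
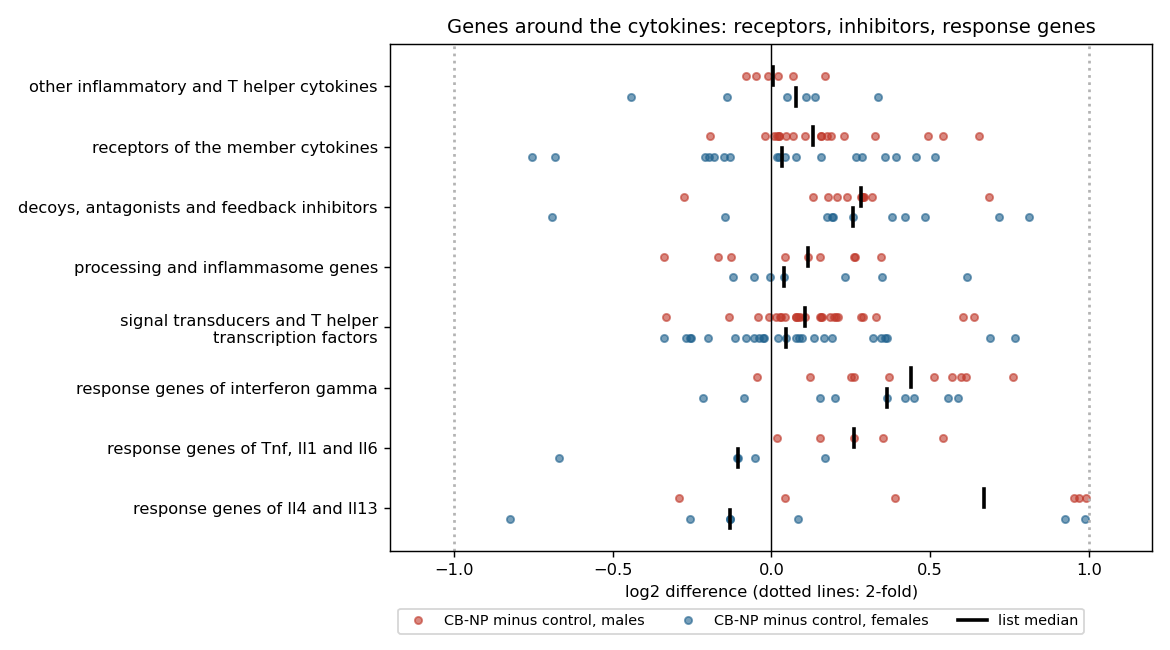
Log2 differences (CB-NP minus control) of the genes measured in each list around the cytokines, males above females in each row, with a bar at the list median and dotted lines at 2-fold. No point lies beyond 2-fold, and the medians of the Ifng response genes (0.44 and 0.36) and of the inhibitors (0.28 and 0.26) lie above 0 in both sexes.

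Of the other cell type lists, erythroid genes had medians of -0.08 in males and -0.14 in females, dendritic cell genes 0.08 and -0.13, stroma and endothelium genes 0.01 and 0.24, and megakaryocyte and platelet genes 0.29 and -0.02, of which the female one turned positive with cyclic loess, with the authors' scaling and with quantile normalization. Pancreatic acinar genes, which mark the exocrine pancreas and not the spleen, summed to 2.08 in male CB-NP and 23.8 in male control, and to 2.13 in female CB-NP and 20.1 in female control, with 8 of 16 well above background in each CB-NP pool and 14 of 16 in each control pool. Their part in the cytokine values was not tested.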

How the data were processed

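The deposited processed signal is an intensity which, per the file headers, Agilent Feature Extraction 10.10.1.1 computed from single-colour scans of design 028005 by background subtraction and detrending within each array. The deposited value table equalled that signal times 1 constant per array (3.18 for male CB-NP, 3.10 for male control, 3.49 for female CB-NP and 2.64 for female control). Its column medians were 76.1, 75.2, 79.4 and 68.9 in that order, and the target of its scaling is unknown.

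Signals were converted to log2 and centred on the 75th percentile of each array, which was 340, 335, 317 and 392 units in the same order. Spots of a probe were averaged without outlier flags, and a probe was well above background when a majority of its spots were. Of 55681 probes, 26762 matched a gene (RefSeq names, GRCm38.p6), represented by its brightest probe. Scanner errors came from the deposited error of the processed signal. Limma 3.58.1 in R 4.3.3 tested 14502 genes, those detected on 2 or more arrays. It was also run on simulated data with noise drawn from the fit's own spread. Such a run checks the code and cannot show that the model holds for these pools. Tables and plots were made in Python 3.11.15 (matplotlib 3.10.9, numpy 2.4.6, pandas 2.3.3). Named were all 10 members, the 3 genes nearest to the member of widest range and, from each list, up to 4 genes past 2-fold in a sex or otherwise the 2 brightest. Not every marker gene that met the rule is printed. The members and the 8 pathway and 12 marker lists were chosen with earlier results of these data known. The design assumed a mean-pixel signal for normexp, and the median-pixel signal (offset 50) was used. Other settings were median centring, quantile normalization, cyclic loess, the authors' scaling, averaged probes, detection filters, a model without sex and an intensity trend.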

Additional observations from a re-analysis of the deposited data

Results flagged for a closer look

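The differences of 3 genes ran in opposite directions in the sexes. CB-NP minus control was 0.42 in males and -0.25 in females for Ifng, and the female minus male value of these differences was -0.67. For Il1b the values were 0.09 and -0.48, with a female minus male value of -0.56. For Il18 they were -0.19 and 0.07, with a female minus male value of 0.26. With 1 pool per group, none of these differences between the sexes was tested. The scanner error of the last value is 0.33 for Ifng, 0.31 for Il1b and 0.29 for Il18, so that of Il18 lies within it. The male Il1b difference and both Il18 differences lie within their own scanner errors. With normexp both Ifng differences were above 0 (0.10 and 0.06), and with median centring both Il18 differences were below 0 (-0.15 and -0.04). Among all genes measured in every pool, 32.8% had opposite signs.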

How the results depend on the processing

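No member passed 2-fold in the male or female pair under any alternative scaling, background correction, probe averaging or detection filter that was run, and limma called no member under any of its 11 alternatives. At 1.5-fold, 1 member (Tnf) was counted in the male pair and 1 (Ifng) between the controls. Ifng also passed 2-fold between the controls, as 1 member, with median centring, which shifted the median of all genes by -0.111 in the female pair and by 0.118 between the controls. Of 105 values of members recomputed, 7 moved beyond the scanner error, all of them with normexp. Not all of the 105 could move. Probe averaging leaves every member unchanged, since each has 1 probe. A median of all spots leaves Il18 and Ifng unchanged, which are printed 1 and 2 times. The sign turned for Ifng and Il4 in females (normexp), Il18 in females (median centring) and Il4 between the controls (normexp, -0.13). The number of genes called by limma was 12, and it was 612 with normexp, 347 with median centring, 381 with an intensity trend, 3 with quantile normalization, 3 with cyclic loess, 2 with the authors' scaling and 0 without a filter or over genes detected on all arrays. The cause was not tested. Low signal limits Ifng, Il4 and the undetected members. Genes at least 2-fold different numbered 35 in males, 50 in females and 15 between the controls with normexp, against 122, 154 and 110. The labels give no replicate numbers, so no replicate block was fitted. The limma model pairs the pools of a sex through its sex term, and without that term it called 9 genes. Female list medians near 0 moved with the processing, from -0.21 to -0.01 for natural killer and innate lymphoid genes, from -0.24 to -0.01 for dendritic cells and from -0.25 to -0.02 for erythroid cells. The female median of monocyte and macrophage genes ranged from -0.11 to 0.10. It changed sign with normexp, median centring and probe averaging. The median of the Tnf, Il1 and Il6 response genes was lowest with median centring, at -0.22.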
